A study of Saccharomyces cerevisiae with 9 samples.

Results

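The vacuolar proton ATPase (V-ATPase) of budding yeast was followed through 10 of its subunit genes: VMA1, VMA2, VMA4, VMA5, VMA8 and VMA13 of the V1 sector, and VMA3, VMA6, VPH1 and STV1 of the Vo sector. They were found by open reading frame among the 5716 probe sets (5667 genes) of the array, and each of the 10 had 1 probe set. The arrays compared 3 culture conditions in the BY4741 background, a haploid laboratory strain of mating type a. Non-restricted cells (NR) grew with 2% glucose, calorically restricted cells (CR) with 0.5% glucose, and rapamycin-treated cells (RM) with 2% glucose and 100 nM rapamycin, an inhibitor of the TOR kinase. The medium was YPD, which is rich in peptides, and the temperature 30 °C throughout. Cells were taken 5 days after inoculation, from 3 replicates a group with 1 array each. The labels call the replicates biological without saying that they were separate cultures, and their set numbers, which match the replicate numbers, are not explained, so the SEs and p-values measure the spread between these arrays, which may be in part technical. BY4741 carries auxotrophic gene deletions that all 3 groups share, and a culture of this age is long past rapid growth, so the arrays describe late cultures and not the first response to low glucose or to rapamycin.

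The V-ATPase is a rotary pump in the membrane of the vacuole, the Golgi and endosomes. Its V1 sector, on the cytosolic side, hydrolyses ATP, and its Vo sector, in the membrane, carries protons into the organelle, which drives the storage of calcium, metals and amino acids and keeps vacuolar hydrolases active. In yeast V1 comes off Vo when glucose is withdrawn and returns when glucose is restored, a change in the protein complex that needs no new transcription, so the transcript levels below say nothing of how much of the pump was assembled.

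Signals are log2 values per probe set, and a change was called where limma gave an adjusted p below 0.05. The method fits a linear model to each probe set and moderates its spread with that of all probe sets. The CR arrays were nearly alike, with pairwise correlations over all probe sets of 0.997 or 0.998 and a median SD within the group of 0.055. The NR arrays were not, with correlations of 0.929 to 0.977 and a median SD of 0.29, and NR replicate 3 stood farthest from its group. The median SD was 0.16 in RM. The V-ATPase genes followed this: all 10 had a larger SD in NR than in CR, as had 93.9% of all probe sets. In 8 of 10 (all but VMA3 and VMA6) the SD was larger in NR than in RM, as in 75.5% of all probe sets. The highest NR value was in replicate 3 for 8 of 10, which was not counted over all probe sets. Results are therefore also given without NR replicate 3. LEU2, MET17 and URA3, which BY4741 lacks, read 0.71 to 2.01 on all arrays, whereas the V-ATPase genes read 5.98 to 10.20. Of 4 marker genes of mating type a, 3 were called lower under CR against NR, where 33.8% of all probe sets were called lower and 35.2% higher. Of 3 markers of mating type alpha, 2 fell, MF(ALPHA)2 with overlapping groups, and STE3 rose. The alpha-factor gene MF(ALPHA)1 read 6.62 in NR replicate 3 against 3.50 in the other NR arrays. MF(ALPHA)2 was lowest in that array (4.42, 4.12 and 3.73 in NR). Both alpha-factor genes were dim, with only 4.6% and 5.0% of probe sets dimmer on average. The 4 markers of mating type a also had their highest NR value in replicate 3 (MFA1 8.49, 9.13 and 10.75).

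VMA1, VMA2 and VMA4 of the V1 sector fell under low glucose against both other groups, while VMA8 of the same sector was not called. VMA1 (YDL185W) encodes subunit A, the catalytic subunit, and its product frees itself of an internal protein-splicing element. VMA1 read 9.49, 9.65 and 9.92 in NR, 9.005, 9.08 and 9.04 in CR, and 9.64, 9.71 and 9.51 in RM. All CR arrays lay below all others, and NR and RM overlapped. VMA1 was 1.56-fold lower under CR than NR (log2 -0.65 ± 0.13 SE, adjusted p = 0.0019) and 1.497-fold lower under CR than RM (log2 -0.58 ± 0.13 SE, adjusted p = 0.00452).

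VMA2 (YBR127C) encodes subunit B, which alternates with subunit A in the ATP-binding ring. VMA2 read 9.58, 9.98 and 9.75 in NR, 9.27, 9.24 and 9.30 in CR, and 9.84, 9.997 and 9.99 in RM. Again the CR arrays lay below all others without overlap. The fall under CR was 1.42-fold against NR (log2 -0.50 ± 0.13 SE, adjusted p = 0.00572) and 1.596-fold against RM (log2 -0.67 ± 0.13 SE, adjusted p = 0.00143). VMA4 (YOR332W) encodes subunit E of the peripheral stalks that hold V1 to Vo. VMA4 read 9.41, 9.58 and 9.64 in NR, 8.79, 8.69 and 8.78 in CR, and 9.42, 9.43 and 9.44 in RM. No NR or RM array came within the CR range. VMA4 fell 1.73-fold under CR against NR (log2 -0.79 ± 0.11 SE, adjusted p = 0.000156) and 1.59-fold against RM (log2 -0.67 ± 0.11 SE, adjusted p = 0.000609). For VMA1, VMA2 and VMA4 both falls were called in each of 17 alternative fits, and under RM the 3 genes differed from NR by -0.06, 0.17 and -0.12 on the log2 scale, none called, with 95% intervals that reached from -0.36 to 0.46.

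VMA5 (YKL080W) encodes subunit C, which joins the stalks to the membrane sector and is released when V1 comes off. VMA5 read 6.73, 7.16 and 8.19 in NR, 6.20, 6.19 and 6.27 in CR, and 6.79, 6.46 and 7.01 in RM. Both CR comparisons were without overlap, but NR replicate 3 stood well above the other NR arrays. The fall under CR against NR was called, at 2.20-fold (log2 -1.14 ± 0.32 SE, adjusted p = 0.00993), and was -0.72 on the log2 scale without NR replicate 3 (adjusted p = 0.00582). CR over RM was -0.53 (adjusted p = 0.181), which passed the threshold without NR replicate 3 (adjusted p = 0.0163), with group weights (0.0112) and in the fit to CR and RM alone (0.0105). RM over NR was -0.61 (adjusted p = 0.159) and was called without NR replicate 1, at -0.92 (adjusted p = 0.0288), whereas without NR replicate 3 it was -0.19 (adjusted p = 0.422).

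VMA13 (YPR036W) encodes subunit H, which couples ATP hydrolysis to transport and silences free V1. VMA13 read 8.31, 8.96 and 9.08 in NR, 8.10, 8.24 and 8.19 in CR, and 8.08, 7.81 and 8.39 in RM. The CR arrays lay below the NR arrays by a narrow margin, and RM overlapped both. VMA13 was called lower under CR (1.52-fold, log2 -0.61 ± 0.22 SE, adjusted p = 0.0305) and under RM (1.61-fold, log2 -0.69 ± 0.22 SE, adjusted p = 0.0345) than in NR. Neither was called without NR replicate 3 (adjusted p = 0.0834 and 0.0756). The calls were also lost without NR replicate 2 or any single CR array, and that for RM also without RM replicate 1 or 2, with group weights and in the fit to NR and RM alone.

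VMA8 (YEL051W), for subunit D of the central rotor stalk, differed from its V1 partners. VMA8 read 7.68, 7.90 and 8.08 in NR, 8.06, 7.90 and 8.04 in CR, and 7.83, 7.92 and 7.87 in RM, so that all groups overlapped. Its CR over NR difference was 0.11 on the log2 scale (95% interval -0.17 to 0.40, adjusted p = 0.445), an interval that holds no fall of the size seen in VMA1, VMA2 or VMA4. VMA8 was called in 0 of 17 alternative fits of any comparison.

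**Figure D1:**
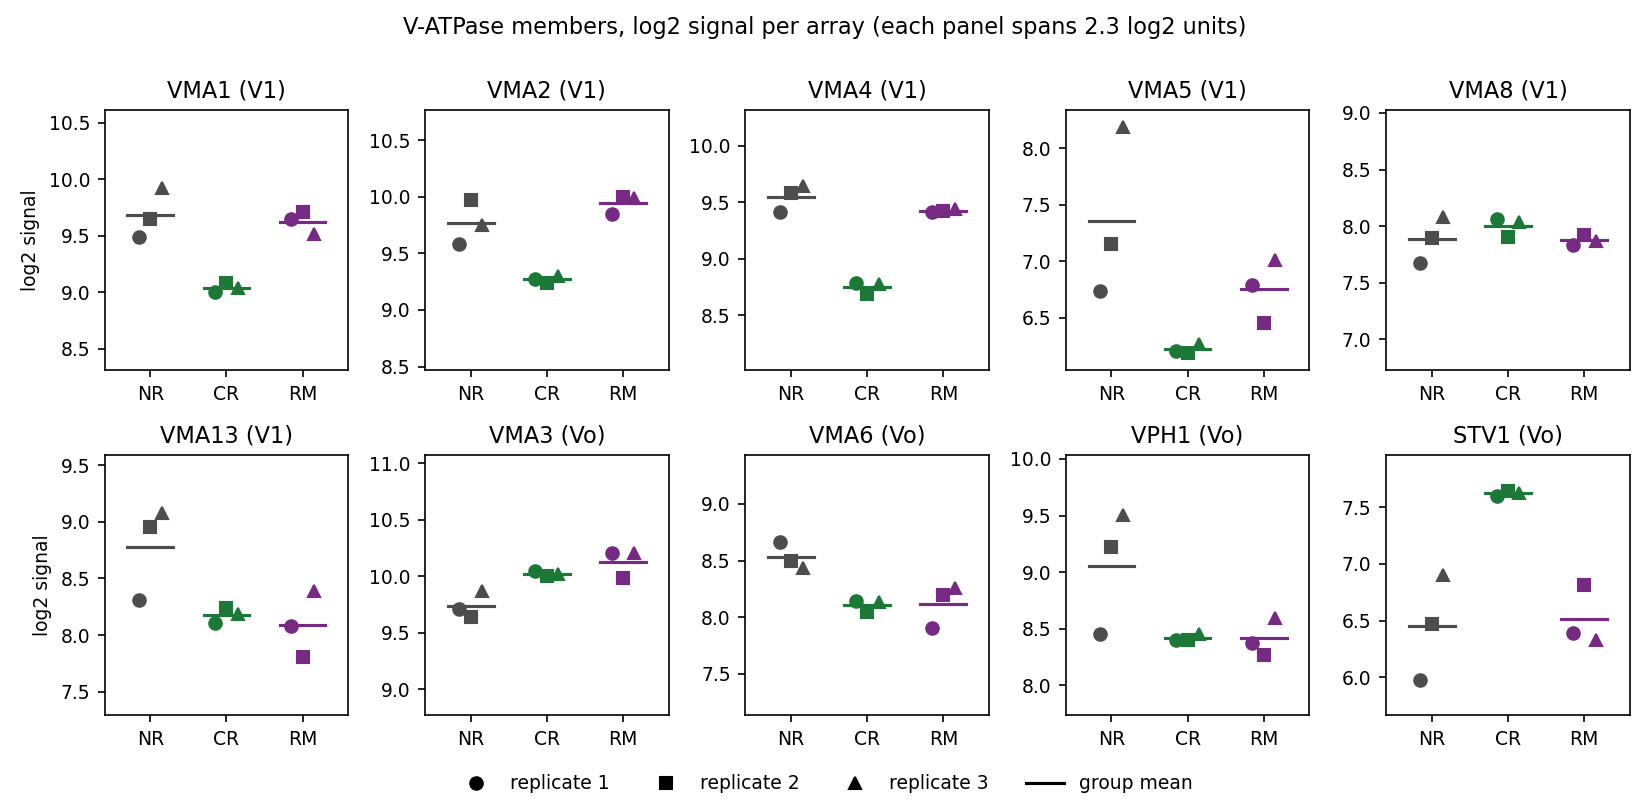
Log2 signal of the 10 V-ATPase genes on each array (points, shaped by replicate number) with the group means (bars); all panels span the same range. The CR points of VMA1, VMA2 and VMA4 lie below all others, those of STV1 lie at 7.60 to 7.65 above all others, and the NR points of VMA5 run from 6.73 to 8.19.

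In the Vo sector VMA3 went the other way. VMA3 (YEL027W) encodes subunit c, the proteolipid that makes up most of the rotating proton-carrying ring. VMA3 read 9.71, 9.64 and 9.87 in NR, 10.04, 10.002 and 10.02 in CR, and 10.20, 9.99 and 10.20 in RM. Every CR and RM array lay above every NR array. The rise under RM was called, at 1.31-fold (log2 0.39 ± 0.12 SE, adjusted p = 0.0292), while CR over NR was 0.28 (adjusted p = 0.0557) and was called without NR replicate 3, at 0.34 (adjusted p = 0.0169). The RM call was made in 9 of 17 alternative fits and was lost, for example, in the fit to the NR and RM arrays alone (adjusted p = 0.115), in the fit with group weights, without NR replicate 2, without any single CR array, and without RM replicate 1 or 3.

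VMA6 (YLR447C) encodes subunit d, which links the central stalk to the proteolipid ring. VMA6 read 8.66, 8.49 and 8.43 in NR, 8.14, 8.04 and 8.13 in CR, and 7.91, 8.20 and 8.25 in RM. NR lay above both other groups with no overlap. The falls were alike in size, 1.34-fold under CR (log2 -0.42 ± 0.13 SE, adjusted p = 0.0154) and 1.33-fold under RM (log2 -0.41 ± 0.13 SE, adjusted p = 0.0353), and CR over RM was -0.01 (95% interval -0.30 to 0.28). The CR call was lost without CR replicate 2 (adjusted p = 0.0609). The RM call was made in 7 of 17 alternative fits, with adjusted p up to 0.147, and was lost with the replicate block, with group weights, in the fit to NR and RM alone, and without any single array except NR replicate 3 or RM replicate 3.

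Subunit a, which forms the proton channels of Vo, has alternative forms in yeast: Vph1 serves the vacuole and Stv1 the Golgi and endosomes, and Stv1-containing pumps respond less to glucose withdrawal. VPH1 (YOR270C) read 8.45, 9.22 and 9.50 in NR, 8.40, 8.40 and 8.45 in CR, and 8.38, 8.27 and 8.60 in RM. NR replicate 1 sat at the CR level, so the groups overlapped. VPH1 was called lower under CR than NR (1.56-fold, log2 -0.64 ± 0.24 SE, adjusted p = 0.0353) and had the same size of difference under RM without passing (log2 -0.64, adjusted p = 0.0586). Without NR replicate 3 both values were -0.42, and neither was called (adjusted p = 0.0977 for CR and 0.137 for RM). Without NR replicate 1 the RM value was called, at -0.95 (adjusted p = 0.00144). The CR call was also lost without NR replicate 2, without any single CR array, without RM replicate 1, and in the fit to NR and CR alone.

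STV1 (YMR054W) read 5.98, 6.47 and 6.90 in NR, 7.60, 7.65 and 7.63 in CR, and 6.39, 6.82 and 6.33 in RM. Every CR array lay above every other array, and NR and RM overlapped. STV1 rose 2.26-fold under CR against NR (log2 1.18 ± 0.22 SE, adjusted p = 0.00118) and 2.17-fold against RM (log2 1.12 ± 0.22 SE, adjusted p = 0.00218). Both rises were called in each of 17 alternative fits, and without NR replicate 3 the first was 1.40 on the log2 scale. STV1 did not pass the test under RM (log2 0.06, 95% interval -0.44 to 0.57).

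Whether STV1 and VPH1 changed unequally was tested on their difference within each array. STV1 minus VPH1, in log2 units, was -2.61 ± 0.14 in NR, -0.79 ± 0.04 in CR and -1.90 ± 0.41 in RM (SD, n = 3 each). The groups did not overlap, with CR highest and NR lowest. An exact two-sided permutation test over the 3 groups gave p = 0.00357, the smallest it can give. The shift of CR from NR was 1.82 on the log2 scale, that of RM from NR was 0.71, and the spread in RM was the widest. The p-value covers the 3 groups together and does not test RM against NR alone. In RM over NR, VPH1 was -0.64 and STV1 0.06 on the log2 scale, and neither was called. The difference between signals of separate probe sets is not a ratio of transcript numbers, and only its change between groups is read here. The NR arrays, which spread widely in each gene alone, were close together in this difference, since STV1 and VPH1 were both lowest in NR replicate 1 and both highest in NR replicate 3.

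**Figure D2:**
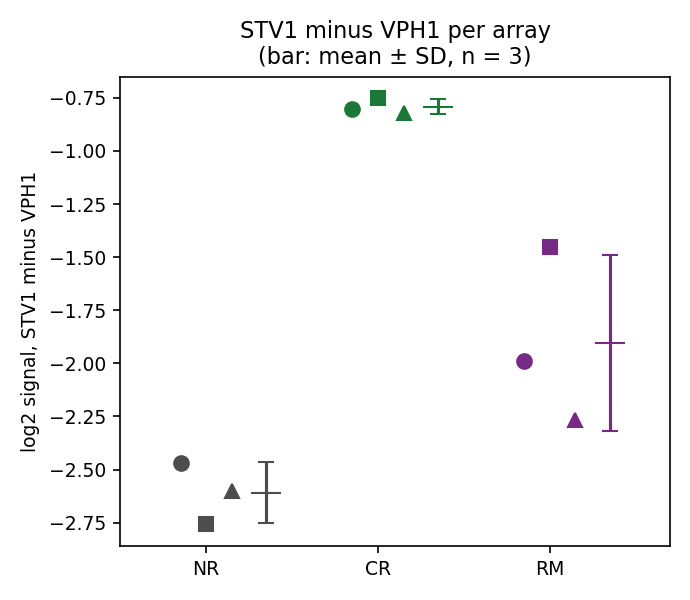
Log2 signal of STV1 minus that of VPH1 on each array (points), with mean ± SD per group beside them. CR lies at -0.79 ± 0.04, above RM at -1.90 ± 0.41 and NR at -2.61 ± 0.14.

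Counted over the 10 genes, CR against NR called 7 lower and 1 higher. Over all 5716 probe sets of the array 33.8% were called lower in that comparison and 35.2% higher, so most of the array had changed. The median log2 change of the 10 genes was -0.55, beside 0.02 over all probe sets. By sector within these 10, 5 of 6 V1 genes and 2 of 4 Vo genes were called lower, and STV1 was the gene called higher. Of the 6 other subunit genes, given below, 2 were called lower and VMA10, for a peripheral stalk subunit, was called higher. Groups did not overlap for 6 genes that were lower in CR, beside 37.1% of probe sets, and for VMA3 and STV1, which were higher, beside 38.4%. Without NR replicate 3 the counts were 5 lower and 2 higher, beside 34.6% and 36.0% of probe sets, since VMA13 and VPH1 dropped out and VMA3 entered. Most changes were below 2-fold. At 2-fold or more with adjusted p below 0.05 only VMA5 and STV1 were called, a call made for 37.8% of all probe sets.

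Rapamycin against NR called VMA6 and VMA13 lower and VMA3 higher, beside 19.5% of all probe sets called lower and 17.6% higher. The groups did not overlap for VMA6, which was lower (22.7% of all probe sets), and VMA3, which was higher (20.8%). The median of the 10 genes was -0.09 on the log2 scale, and -0.05 over all probe sets. VMA6 was called lower and VMA3 higher without NR replicate 3, beside 20.0% and 17.9% of probe sets. No gene of the 10 passed a 2-fold limit with an adjusted p below 0.05, as 8.64% of all probe sets did. No member was called in all 17 alternative fits of this comparison. With group weights, or in the fit to the NR and RM arrays alone, 0 of 10 were called. The share of all probe sets called in those fits was not counted, so this is not read as particular to these genes. In the fit to all arrays 4 of the 10 had an unadjusted p below 0.05, the 3 called genes and VPH1, as had 47.4% of all probe sets.

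Set directly against rapamycin, low glucose gave lower VMA1, VMA2 and VMA4 and higher STV1. These 4 calls stood beside 26.7% of all probe sets called lower and 29.5% higher, and they are the test of whether the effects of low glucose and of rapamycin differ for these genes. Groups did not overlap for these 4 genes and for VMA5, which was lower, beside 37.2% of probe sets lower and 38.6% higher. VMA5 was called too without NR replicate 3, beside 32.5% of probe sets called lower and 34.1% higher. STV1 alone passed a 2-fold limit, as 26.1% of all probe sets did. The CR and RM comparisons with NR share the NR arrays. In VMA6, VMA13 and VPH1 the CR over RM values were -0.01, 0.08 and 0.00 on the log2 scale and none was called. Their 95% intervals, -0.30 to 0.28, -0.40 to 0.57 and -0.53 to 0.53, leave room for a difference.

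**Figure D3:**
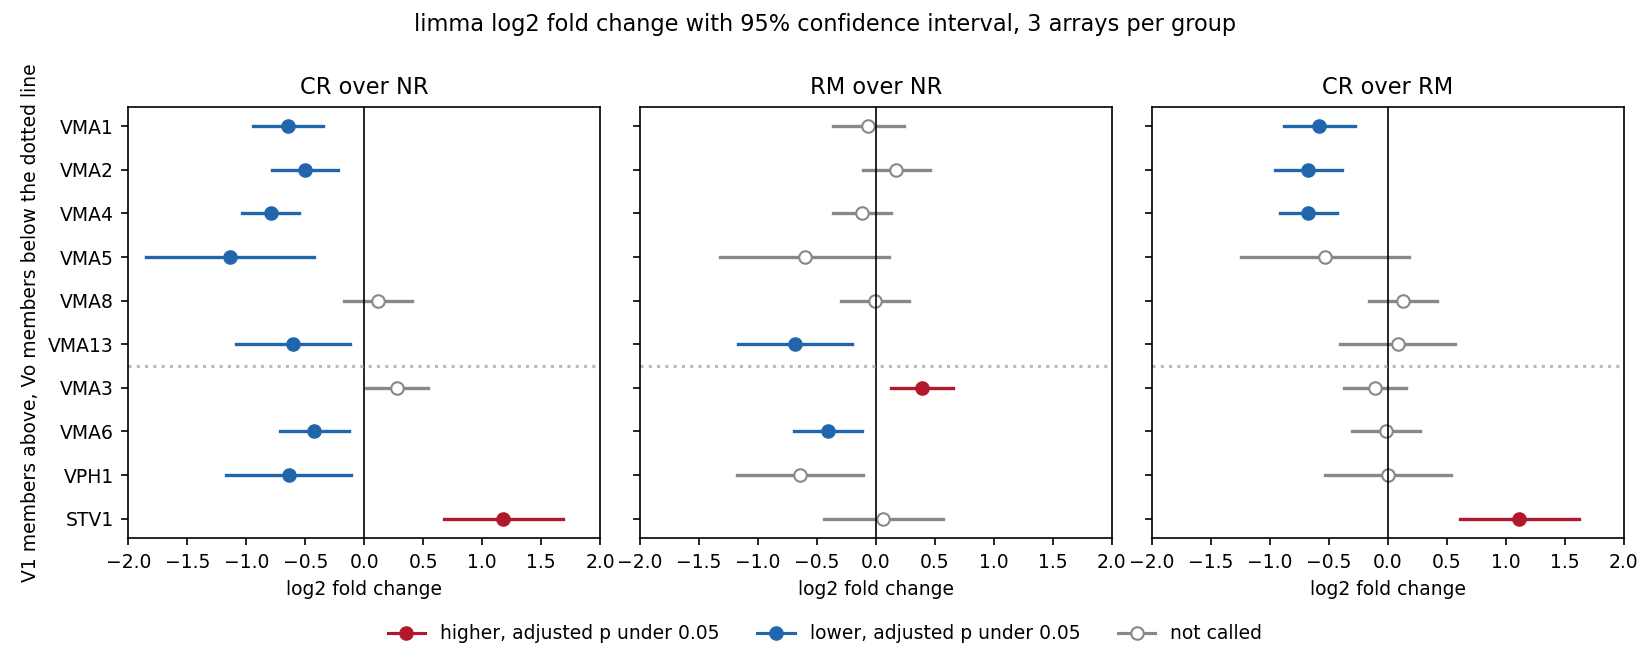
Log2 fold change of each V-ATPase gene (points) with its 95% confidence interval (lines) in the 3 comparisons, from limma with 3 arrays per group. VMA1, VMA2 and VMA4 are lower and STV1 higher under CR against both other groups, while under RM the points of VMA13, VMA6 and VMA3 pass the threshold.

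Folds in the authors' deposited table come from the same group means and have the same values. Of the 10 genes, STV1 alone reaches 2-fold with a p-value below 0.05 in the authors' deposited table, at 2.26-fold in CR over NR and 2.17-fold in CR over RM. Those limits are passed by 36.5% and 24.9% of all probe sets of the authors' deposited table. VMA5 is 2.20-fold lower in CR over NR in the authors' deposited table and misses by its p-value (0.0528). Under RM 0 of the 10 genes pass in the authors' deposited table, against 7.68% of all probe sets.

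The remaining subunit genes changed in both directions. VMA10, for the other peripheral stalk subunit (G), rose under CR, 1.49-fold against NR (log2 0.57 ± 0.12 SE, adjusted p = 0.00262) and 1.32-fold against RM (adjusted p = 0.0219), while its stalk partner VMA4 fell in both. VMA7, for subunit F of the central stalk, fell 1.46-fold under CR (adjusted p = 0.0129) and 1.57-fold under RM (adjusted p = 0.0144) against NR. VMA9, for the small membrane subunit e, fell 1.44-fold under CR against NR (adjusted p = 0.00896) and 1.31-fold against RM (adjusted p = 0.0439). The minor proteolipids VMA11 and VMA16 and the Vo-associated VOA1 were not called in any comparison, and their log2 changes lay between -0.25 and 0.20. Of these 6 genes 2 were called lower and 1 higher in CR over NR, beside 33.8% and 35.2% of all probe sets. In RM over NR 1 was called lower (19.5% of all probe sets), and in CR over RM 1 in each direction (26.7% lower and 29.5% higher). The same counts were found without NR replicate 3, beside 34.6% of all probe sets lower and 36.0% higher in CR over NR. The shares were then 20.0% lower in RM over NR, and 32.5% lower and 34.1% higher in CR over RM.

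Assembly factors, which act in the endoplasmic reticulum, also split. VMA21 read 7.94, 7.74 and 7.84 in NR, 8.52, 8.39 and 8.41 in CR, and 7.41, 7.16 and 7.47 in RM. It stood highest in CR and lowest in RM with no overlap, and it was the assembly or subunit gene called in opposite directions, 1.52-fold higher under CR (log2 0.60 ± 0.12 SE, adjusted p = 0.00184) and 1.41-fold lower under RM (log2 -0.49 ± 0.12 SE, adjusted p = 0.0147) than in NR. CR over RM was 2.13-fold (adjusted p = 7.32e-05). VPH2, also called VMA12, whose product works with Vma22, fell 2.26-fold under CR (log2 -1.18 ± 0.14 SE, adjusted p = 7.45e-05) and 1.36-fold under RM (adjusted p = 0.0366, and 0.0626 without NR replicate 3) against NR. PKR1, for a membrane protein needed for Vo, fell 1.51-fold under CR against NR (adjusted p = 0.0078) and 1.53-fold against RM (adjusted p = 0.00796). VMA22 had a CR over NR value of -0.74 on the log2 scale and was not called (adjusted p = 0.0586).

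The RAVE complex, which puts V1 back on Vo when glucose returns, consists of Rav1, Rav2 and Skp1, the last of which also serves SCF ubiquitin ligases. RAV1 read 6.11, 6.47 and 6.22 in NR, 7.61, 7.69 and 7.70 in CR, and 7.04, 7.19 and 6.99 in RM. The 3 groups were fully apart, with CR highest and RM between. RAV1 rose 2.65-fold under CR (log2 1.40 ± 0.13 SE, adjusted p = 1.29e-05) and 1.75-fold under RM (log2 0.81 ± 0.13 SE, adjusted p = 0.00227) against NR, and CR exceeded RM by 1.51-fold (adjusted p = 0.00297). SKP1 rose 2.75-fold (adjusted p = 0.000253) and RAV2 1.69-fold (adjusted p = 0.00535) under CR against NR. All 3 RAVE genes were thus called higher in that comparison, a call made for 35.2% of all probe sets. Against RM, SKP1 was 1.89-fold higher under CR (adjusted p = 0.00509) and RAV2 was not called (log2 0.46, adjusted p = 0.0644, and 0.00122 without NR replicate 3). The opposite sign was seen in OXR1, whose product promotes disassembly of the yeast enzyme, which fell 1.89-fold under CR against NR (log2 -0.92 ± 0.19 SE, adjusted p = 0.00216) and 2.06-fold against RM (adjusted p = 0.00142). RTC5, for a second protein that promotes disassembly, was not called in CR over NR (log2 -0.26, adjusted p = 0.311). Without NR replicate 3 it was called lower under CR (log2 -0.55, adjusted p = 0.00135) and under RM (log2 -0.40, adjusted p = 0.0171).

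Other proton pumps and the users of the vacuolar gradient give the surroundings. Of 12 vacuolar exchangers and transporters that run on the proton gradient, 6 were called higher and 3 lower in CR over NR, beside 35.2% and 33.8% of all probe sets, with a median of 0.35 on the log2 scale. The highest was AVT6, an exporter of acidic amino acids from the vacuole, at 4.75-fold (adjusted p = 5.01e-06), and the lowest was the calcium exchanger VCX1, 2.40-fold lower (adjusted p = 3.91e-05). Under RM 3 of the 12 were called higher than in NR and 0 lower, beside 17.6% and 19.5% of all probe sets, with VBA3 highest at 2.48-fold (adjusted p = 0.00369), whose probe set name carries the suffix for sequence shared among transcripts, and AVT4, which also exports amino acids from the vacuole, the least changed of the 3 at 1.45-fold (adjusted p = 0.0279). In CR over RM 4 were higher and 3 lower, beside 29.5% and 26.7% of all probe sets, from AVT6 at 3.71-fold higher to VCX1 at 2.52-fold lower. With NR replicate 3 left out the counts higher and lower were 6 and 3 in CR over NR, 4 and 0 in RM over NR, and 5 and 4 in CR over RM. Without that array 36.0% of all probe sets were called higher and 34.6% lower in CR over NR. The shares were then 17.9% and 20.0% in RM over NR, and 34.1% and 32.5% in CR over RM. For the pump and synthase counts that follow, the same shares apply, with all arrays or without NR replicate 3 as each count states.

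Of 6 genes for the plasma membrane proton pump and its regulators, 3 were called lower in CR over NR and 0 higher, led by the minor pump isoform PMA2, 3.04-fold lower (adjusted p = 0.0317), with PMP2 the nearest to 0 of the 3, 2.12-fold lower. Without NR replicate 3 PMA2 was not called (log2 -1.06, adjusted p = 0.0983), and PMP1, for a small regulator of the pump, was called higher under both CR and RM (adjusted p = 0.0108 and 0.000883). Under RM 2 of the 6 were lower, PMP2 at 1.57-fold and the kinase gene HRK1 at 1.47-fold (adjusted p = 0.0301, and 0.054 without NR replicate 3). In CR over RM 2 were lower and 1 higher, from PMA2, 3.83-fold lower, to the kinase gene PTK2, 1.25-fold higher (adjusted p = 0.0498), and 4 were lower and 1 higher with NR replicate 3 left out. Left out in the same way, the list had 2 lower and 1 higher in CR over NR and 1 in each direction in RM over NR. The main pump gene PMA1, named after its values were seen, read 6.36, 6.21 and 9.31 in NR, 6.51, 6.43 and 6.50 in CR and 6.12, 6.48 and 6.03 in RM, so that NR replicate 3 alone was high.

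The mitochondrial ATP synthase, a related rotary enzyme that runs in the direction of ATP synthesis, had 10 of 14 genes called lower in CR over NR (median log2 -0.95) and 10 of 14 in RM over NR (median -0.90), with 0 higher in either. ATP2, for its catalytic subunit, fell most of the 14 in both, 5.75-fold under CR and 3.25-fold under RM. ATP1 was 1.71-fold lower under CR and 1.72-fold lower under RM. VMA2 and VMA1 fell 1.42-fold and 1.56-fold under CR and were not called under RM. In CR over NR the called gene of the synthase nearest to 0 was ATP16, 1.61-fold lower, and in RM over NR it was ATP4, 1.48-fold lower. In CR over RM 7 were lower and 1 higher, from ATP2, 1.77-fold lower, to ATP3, 1.68-fold higher. The synthase counts in CR over NR and RM over NR without NR replicate 3 were again 10 lower, with 1 higher under RM, and the medians were -0.58 and -0.59. In CR over RM 8 were then lower and 3 higher.

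**Figure D4:**
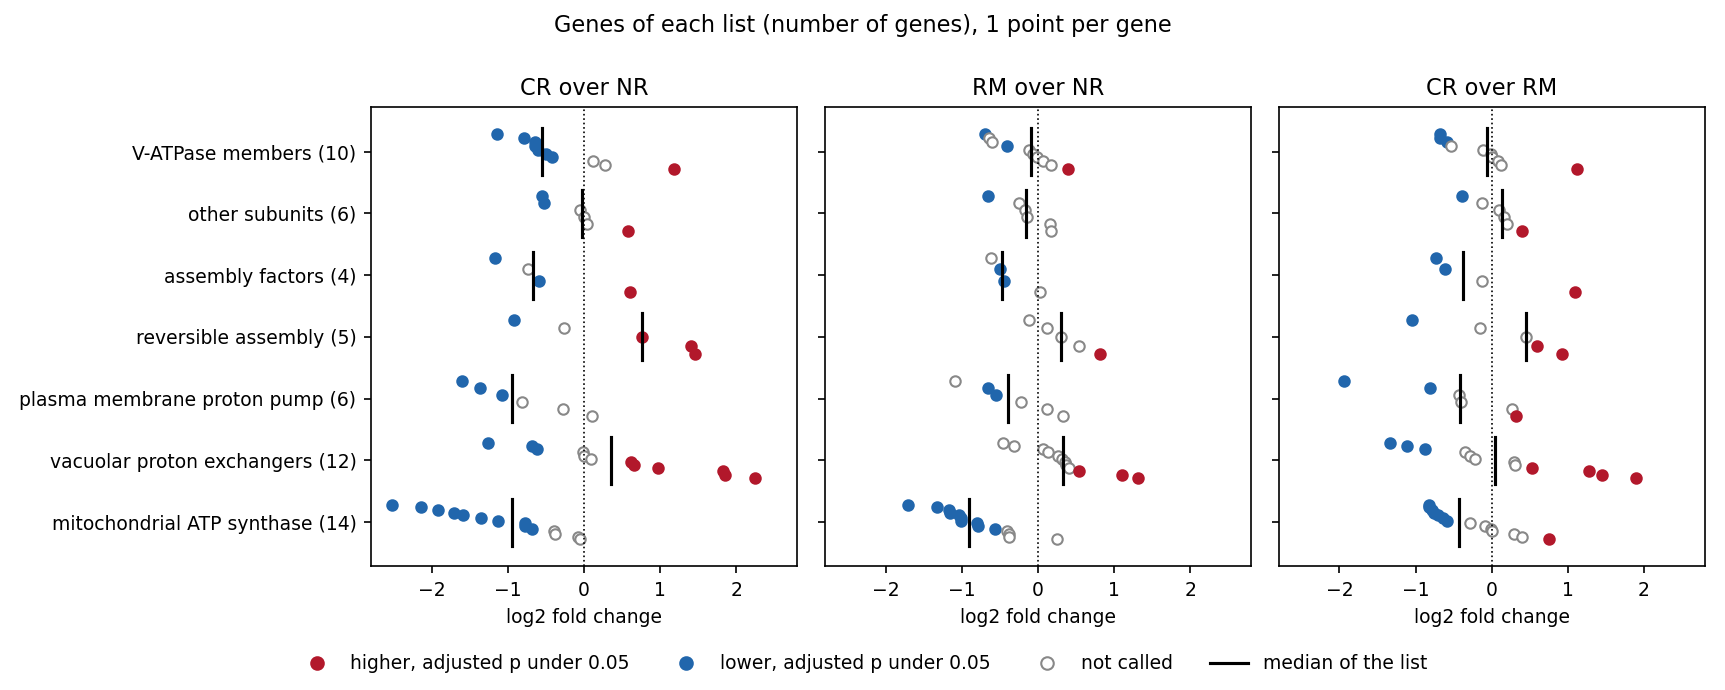
Log2 fold change of each gene (points) in the V-ATPase members and 6 related gene lists, with the median of each list (bars), in the 3 comparisons. The V-ATPase members have a median of -0.55 in CR over NR and -0.09 in RM over NR, while the mitochondrial ATP synthase has -0.95 and -0.90.

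The mean profile of the 10 genes, each centred on its own mean, ran from -0.17 in a CR array to 0.43 in NR replicate 3, with NR replicate 1 at -0.11. The probe sets outside the 10 genes whose profile over the 9 arrays was most like this mean were HOM6 (Pearson r = 0.989), HUG1 (r = 0.982), SEC7 (r = 0.981), ERG2 (r = 0.980) and the vacuolar amino acid transporter AVT1 (r = 0.972). These arrays fall into 3 groups and share their normalization, and 227 of 5706 other probe sets had r above 0.9, so the likeness is a description and rests in part on the spread among the NR arrays. The 10 genes did not follow their mean evenly. Correlation of a gene with the mean of the other members ran from -0.55 for STV1 and -0.42 for VMA3 to 0.91 for VPH1 and 0.92 for VMA5.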

How the data were processed

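The arrays were Affymetrix GeneChip Yeast 2.0, hybridised with biotin-labelled cRNA from total RNA, per the labels' protocols. The authors deposited log2 signals per probe set and array, with array medians of 6.86 to 6.93 and no centring by gene. The submitters' processing notes name RMA and Transcriptome Analysis Console 2.0, without a role. For the genome build nothing is stated in the notes or headers used. The authors also deposited a table of linear folds, with a p-value per pair of groups "after pairwise comparison" per the file headers. Its folds equal the differences of the log2 group means for all 5716 probe sets, within 1e-08. Symbols were looked up by locus tag in RefSeq (assembly R64), with a match for 5646 of 5667 genes.

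One limma 3.58.1 fit (R 4.3.3; lmFit, eBayes) covered all 9 arrays with a mean per group, and p-values were adjusted by Benjamini-Hochberg over all 5716 probe sets, with no filter. Intervals are 95%. The fit was tested on simulated data drawn with the same SD in every group, so the unequal spread of NR, CR and RM was not part of that test. Alternatives were a replicate block, 2 normalizations, an intensity trend, leaving out the dimmest 25% of probe sets, probe set means, each array left out, group weights and fits to the compared groups alone, the last pair chosen after seeing the data. The members and lists were chosen with earlier results of these data known. All 10 members are named, as is each gene of the lists of other subunits, assembly factors and reversible assembly. For other lists the called genes with the highest and lowest fold are named. PMA1 and ATP1, and PMP1 without NR replicate 3, were named after their values were seen. The limited number of arrays sets the precision, and the smallest exact p that 3 against 3 arrays allow is not below 0.05, so no test of a pair of groups was run gene by gene outside limma. No sequences are shown.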

Additional observations from a re-analysis of the deposited data

How the results depend on the processing

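In CR over NR the count of genes called lower stayed at 6 or 7 under the replicate block, both normalizations, the intensity trend, the filter on dim probe sets, probe set means, group weights (7) and the compared groups alone (6). It was 1 with a 2-fold limit and 0 in the authors' deposited table with its 2-fold and p limits, because most changes are below 2-fold, and 4 to 7 with an array left out. The count called higher was 2 with the intensity trend and with the dimmest 25% left out, as VMA3 passed, and 1 to 2 with an array left out. In RM over NR the counts called lower and higher were both 0 with group weights, with the compared groups alone, with a 2-fold limit and in the authors' deposited table, and ranged from 0 to 3 and from 0 to 1 with an array left out. In CR over RM the count called lower was 0 with a 2-fold limit and in the authors' deposited table, 4 with group weights and with the compared groups alone, and 3 to 4 with an array left out. The count called higher was 1 throughout. Shares of all probe sets were counted only for the fit to all arrays, without NR replicate 3, with the 2-fold limit and in the authors' deposited table. The counts from the other alternatives have no such share beside them.

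The labels number the replicates alike in the 3 groups, but deviations from the group means correlated above 0.1 in 1 of 9 same-numbered pairs (range -0.20 to 0.35), and 4 of 9 arrays correlated best with their own number, so the numbers were not taken as pairs. With the replicate block the counts were unchanged (7 lower and 1 higher in CR over NR, 2 lower and 1 higher under RM, and 3 lower and 1 higher for CR set against RM), VMA6 in RM over NR lost its call (adjusted p = 0.064) and VPH1 gained one (adjusted p = 0.0485). STV1 minus VPH1 kept its direction and its side of the threshold throughout, with CR minus NR at 1.74 to 1.89, and with the replicate block p was 0.0278 by exact permutation, the smallest that test can give.

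Signs turned only in values that were not called, and the cause was not tested. With arrays centred on their median VMA8 in RM over NR was 0.0053 and VPH1 in CR over RM -0.054, and with quantile normalization the latter was -0.043. With an array left out, values in RM over NR ran from -0.16 to 0.054 for VMA1, from -0.11 to 0.088 for VMA8 and from -0.17 to 0.29 for STV1. Those in CR over RM ran from -0.060 to 0.23 for VMA13, from -0.12 to 0.054 for VMA6 and from -0.069 to 0.093 for VPH1. The median SD within a group, over all probe sets, was 0.29 in NR, 0.16 in RM and 0.055 in CR.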
